A study of Mus musculus with 31 samples.

Results

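The 10 genes described here are taken from the classical set that marks epithelial cells: desmoplakin (Dsp), plakoglobin (Jup), E-cadherin (Cdh1), P-cadherin (Cdh3), the keratins Krt8, Krt18, Krt19 and Krt14, the transcription factor p63 (Trp63) and the epithelial cell adhesion molecule (Epcam). They were taken by symbol from a table of 24470 symbols, and all 10 were found. The cells were female dermal fibroblasts of mouse, from a cross recorded as CAST/Ei x 129/Sv/Jae, grown without treatment in the same medium. RNA was compared in 3 groups of 2 libraries: Xist-deleted line 1 (XaWT XiΔXist), Xist-deleted line 2 (XaWT XiΔXist #2) and WT. In both deleted lines the active X carries an intact Xist and the inactive X lacks it, as the labels write the genotypes, and the study asked how loss of this RNA affects the inactive X and gene expression. Each genotype number is 1 cell line. Whether a line is a clone, and whether the deleted lines came from the WT cells studied beside them, is not stated in the labels, so deletion and line of origin cannot be told apart within 1 line. The series also holds 17 ATAC-seq and 8 ChIP-seq samples of these and related cells, which were not used here.

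Desmosomes and adherens junctions are the anchoring contacts of epithelial sheets. Cadherins reach across the gap between cells, plakoglobin and the other catenins bind the cadherin tails, and desmoplakin ties the desmosomal plaque to keratin filaments, which assemble from a type I and a type II keratin in pairs. Fibroblasts normally hold on to each other through N-cadherin and cadherin-11, fill their cytoplasm with vimentin rather than keratin and build few or no desmosomes.

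Xist itself was low in the deleted lines, which checks the labels. It lies at chrX:103460373-103483233 (mm10) and had 0.946 and 0.273 CPM (the count per 1e+06 counts of an effective library size) in line 1, 0.969 and 0.282 CPM in line 2, and 633 and 429 CPM in WT. The exon counts summed to 3.81 and 7.06 M in line 1, 4.19 and 6.96 M in line 2, and 4.06 and 6.21 M in WT (M, 1e+06 counts). Replicates were less alike in line 1 than in the other groups. The Pearson correlation of their log2 CPM was 0.964 in line 1, 0.985 in line 2 and 0.983 in WT. The summed level of 11 fibroblast markers, carried mostly by Fn1, Col1a1, Col1a2 and Col3a1, was 7119 and 4470 CPM in line 1, 6544 and 5238 CPM in line 2, and 6441 and 5277 CPM in WT. Lum, lumican, was the low one of the 11, at 0.141 to 5.00 CPM over the 6 libraries. Of those 11 markers only the proteoglycan gene Dcn passed the test, with 243 and 156 CPM in line 1, 28.6 and 19.7 CPM in line 2, and 61.9 and 26.9 CPM in WT (line 1 over WT log2 fold change 2.19, SE 0.43, edgeR adjusted p = 0.0215, and 0.0586 without WT replicate 2; the fold change was 2.88 without WT replicate 1).

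Only part of the set was measurable in these cells. Of the 10 genes 5, namely Cdh3, Dsp, Jup, Krt19 and Trp63, had enough reads to pass the filter on low counts, and the other 5 were close to 0 in all 6 libraries. All values of change below come from edgeR's quasi-likelihood test over 12910 genes with Benjamini-Hochberg adjusted p-values, and a gene is called where the adjusted p is under 0.05. In line 1, 4 of the 5 tested genes were called lower than in WT, where 14.3% of all tested genes were called, 6.75% higher and 7.55% lower. In line 2, 2 of the 5 were called lower than in WT, where 3.58% of all tested genes were called, 1.73% higher and 1.85% lower. Dsp, Cdh3, Krt19 and Trp63, which are all 4 genes called in line 1, passed the filter through the groups in which they were high, so these counts describe the genes and are no measure of the set. RNA from a culture cannot tell fewer cells that express a gene from less RNA in each cell.

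**Figure D1:**
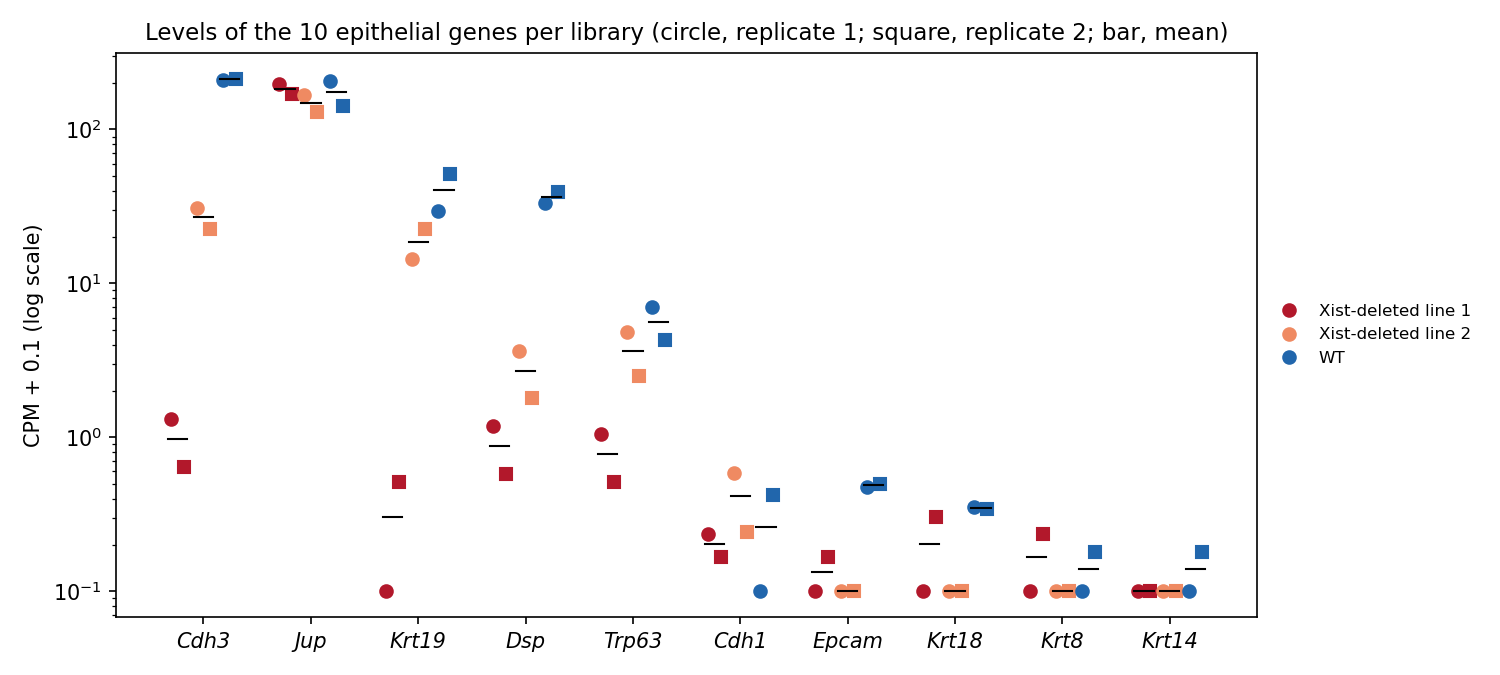
Level of each of the 10 genes in each library, in CPM plus 0.1 on a log scale; circles are replicate 1, squares replicate 2 and bars group means, with line 1 at the left, line 2 in the middle and WT at the right of each gene. Cdh3 was at 1.22 and 0.546 CPM in line 1, 31.0 and 22.4 CPM in line 2 and 208 and 214 CPM in WT, Jup stayed between 129 and 207 CPM, and the 5 genes at the right never exceeded 2.5 counts.

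P-cadherin was called lower in both lines. Cdh3 encodes the cadherin of the basal epidermis, hair follicle and placenta, and lies on the plus strand at chr8:106510852-106556911. It had 4.5 and 4 counts in line 1, 128 and 159 counts in line 2, and 825 and 1336 counts in WT. Scaled by library size these were 1.22 and 0.546 CPM in line 1, 31.0 and 22.4 CPM in line 2, and 208 and 214 CPM in WT. No group overlapped another, and line 2 lay between line 1 and WT on the log scale. Cdh3 fell 248-fold in line 1 relative to WT (log2 fold change -7.96, SE 0.33, adjusted p = 0.000274) and 7.98-fold in line 2 relative to WT (-3.00, SE 0.22, adjusted p = 0.00425). It was 31.1-fold higher in line 2 than in line 1 (log2 difference 4.96, SE 0.36, adjusted p = 0.000818), a contrast in which 12.6% of all tested genes were called, 6.87% higher and 5.76% lower, and in which 2 of the 5 members, Cdh3 and Krt19, were called higher. All 3 calls held under each of 12 alternative settings, with a highest adjusted p of 0.0494 for line 2 against WT. The size of the line 1 values rests on few counts: with line 1 replicate 1 left out line 1 over WT came to -8.55 (log2), and with its replicate 2 left out to -7.26, where line 2 over line 1 came to 4.26. By TPM, the count per mRNA length on a common total, Cdh3 ranked 13878 and 14552 of 24470 symbols in line 1, 9148 and 10077 in line 2, and 1881 and 1646 in WT.

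Desmoplakin was the other member called lower in both lines. It is the plaque protein that anchors keratin filaments to desmosomes, and it lies on the plus strand at chr13:38151294-38198577. The gene had 4 and 3.5 counts in line 1, 14.5 and 12 counts in line 2, and 132 and 245.5 counts in WT, which were 1.08 and 0.478 CPM, 3.51 and 1.69 CPM, and 33.4 and 39.3 CPM in the same order of groups. Both lines lay far below both WT libraries, and line 2 lay above line 1 without overlap. Dsp fell 47.8-fold in line 1 (log2 fold change -5.58, SE 0.46, adjusted p = 0.00126) and 14.4-fold in line 2 (-3.85, SE 0.39, adjusted p = 0.00985). The lines themselves differed by 1.73 (log2, SE 0.57), which did not pass the test (adjusted p = 0.115). The line 1 call held under all 12 alternatives, while the line 2 call was lost without WT replicate 1 (adjusted p = 0.052), WT replicate 2 (0.0655) or line 2 replicate 2 (0.079).

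Plakoglobin, the partner that links desmoplakin to the desmosomal cadherins and also serves adherens junctions, was abundant in every library. Jup lies on the minus strand at chr11:100368856-100397790 and had 729 and 1249.5 counts in line 1, 689 and 915.5 counts in line 2, and 818 and 889 counts in WT. Its level was 197 and 171 CPM in line 1, 167 and 129 CPM in line 2, and 207 and 142 CPM in WT. Both deleted lines overlapped WT. Against WT, line 1 differed by 0.08 (log2, SE 0.22, adjusted p = 0.879) and line 2 by -0.24 (SE 0.22, adjusted p = 0.767), and line 2 minus line 1 was -0.31 (SE 0.22, adjusted p = 0.476). The sign of the first of these turned without WT replicate 2 (-0.16) and without line 1 replicate 1 (-0.03), and that of the second without WT replicate 1 (0.05). Per length, Dsp RNA stood to Jup RNA at 0.00287 and 0.00146 in line 1, 0.0110 and 0.00684 in line 2, and 0.0843 and 0.144 in WT, so even in WT cells desmoplakin was the scarcer of the pair.

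The promoters of these plaque partners are shown because 1 of the genes fell in both lines and the other was called in neither. Each sequence runs from 250 bases before to 50 bases after the transcription start in RefSeq (GRCm38.p6), and capitals mark 2 motifs on either strand: GGGCGG, the core of the GC box bound by Sp factors, and CACCTG, the E-box bound by Snail and Zeb repressors.
The Dsp promoter is at chr13:38151044-38151343 on the plus strand, and the Jup promoter at chr11:100397741-100398040 on the minus strand.
Dsp: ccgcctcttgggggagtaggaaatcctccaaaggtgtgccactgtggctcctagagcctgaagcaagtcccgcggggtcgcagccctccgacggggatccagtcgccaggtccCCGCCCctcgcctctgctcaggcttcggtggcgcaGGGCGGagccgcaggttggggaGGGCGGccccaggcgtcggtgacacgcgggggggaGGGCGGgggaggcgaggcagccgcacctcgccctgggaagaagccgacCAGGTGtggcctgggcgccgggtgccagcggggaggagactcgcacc
Jup: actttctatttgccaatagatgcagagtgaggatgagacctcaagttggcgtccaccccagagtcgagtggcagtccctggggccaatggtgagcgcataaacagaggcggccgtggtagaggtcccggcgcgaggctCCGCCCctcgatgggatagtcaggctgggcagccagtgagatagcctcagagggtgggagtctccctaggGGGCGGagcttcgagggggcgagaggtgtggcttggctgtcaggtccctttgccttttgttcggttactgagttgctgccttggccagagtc
The Dsp window held 4 GC boxes, with first bases at -137, -102, -80 and -45 counted from the start as +1, and 1 E-box written CAGGTG on the gene's strand at +4. The Jup window held 2 GC boxes, at -112 and -42, and no such E-box. No 2 marked motifs overlap. Of 32851 promoters of the same length, 35.7% held a GC box, 20.2% the E-box and 13.6% the letters TATAAA, which neither window contains. The Dsp window was 73.0% G and C with 27 CpG and the Jup window 60.7% with 14 CpG, beside a median of 52.7% over all promoters. The RefSeq table matched 6 of the 10 members, which beside Dsp and Jup were Krt8, Krt18, Krt14 and Epcam, and no promoter is given for Cdh1, Cdh3, Krt19 and Trp63. Among the further windows Krt8 and Krt18 had 1 E-box each, Epcam had 2 and Krt14 had none. A match of letters is a description of the window and not evidence of binding.

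Krt19 was the only keratin of the 4 with a sizeable level in any group. It is the smallest type I keratin, found in simple and ductal epithelia and in hair follicle stem cells, and lies on the minus strand at chr11:100140811-100145926. It had 0 and 3 counts in line 1, 59 and 159.5 counts in line 2, and 116.5 and 319 counts in WT. The CPM values were 0 and 0.409 in line 1, 14.3 and 22.5 in line 2, and 29.4 and 51.1 in WT. Line 1 was at the limit of detection, and line 2 lay below WT with no overlap. The ratio of the summed counts of line 1 to WT was -7.29 on the log2 scale (95% counting interval -9.58 to -5.74, counting error only; adjusted p of the fit 0.00177). The ratio of line 2 to line 1 was 6.16 (4.60 to 8.45; adjusted p = 0.00381). Line 2 against WT did not pass the test (log2 fold change -1.12, SE 0.39, adjusted p = 0.249). Both calls held under all 12 alternatives, and without line 1 replicate 2 line 1 held no count.

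Trp63 encodes p63, the transcription factor that stratified epithelia need to form, and lies on the plus strand at chr16:25683765-25892088. It was a low transcript in every group, with 3.5 and 3 counts in line 1, 19.5 and 17 counts in line 2, and 27.5 and 26 counts in WT. These were 0.946 and 0.409 CPM in line 1, 4.72 and 2.40 CPM in line 2, and 6.95 and 4.16 CPM in WT. Line 1 lay below the other 2 groups, and line 2 overlapped WT. The gene fell 8.15-fold in line 1 (log2 fold change -3.03, SE 0.64, adjusted p = 0.0279), a call lost without WT replicate 1 (adjusted p = 0.121), WT replicate 2 (0.0646) or line 1 replicate 2 (0.114). Its log2 fold change came to -3.67 when line 1 replicate 1 was dropped and to -2.31 when the other line 1 library was dropped. Line 2 differed from WT by -0.66 (SE 0.50, adjusted p = 0.689), and from line 1 by 2.37 (SE 0.67, adjusted p = 0.0753).

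**Figure D2:**
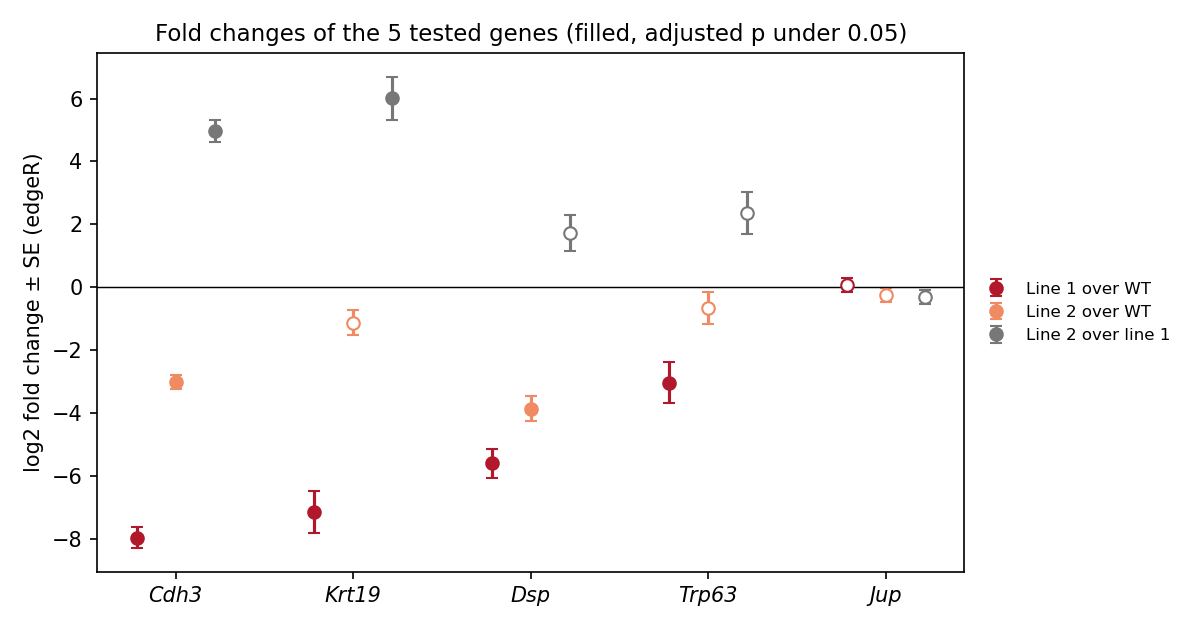
Log2 fold change with its SE from edgeR for the 5 tested genes, for line 1 over WT, line 2 over WT and line 2 over line 1; filled points have an adjusted p under 0.05. Cdh3, Krt19, Dsp and Trp63 are filled and below 0 in line 1, Cdh3 and Dsp also in line 2, and Jup lies near 0 in all 3; the fitted Krt19 values that involve line 1 rest on 3 counts and depend on the prior count.

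The 5 remaining members were near 0. E-cadherin (Cdh1), the defining cadherin of epithelia, had 0.5 and 0.5 counts in line 1, 2 and 1 in line 2, and 0 and 2 in WT. Epcam, a surface glycoprotein of simple epithelia and carcinomas, had 0 and 0.5 counts in line 1, none in line 2, and 1.5 and 2.5 in WT. The simple-epithelial pair Krt8 (type II) and Krt18 (type I) did not exceed 1.5 counts in any library, and Krt14, the type I keratin of the basal epidermis, had 0.5 counts in 1 WT library and none elsewhere. None of the 5 was tested. A count of 3 over both libraries of a group, the limit that a count of 0 allows, corresponded to 0.272 CPM in line 1, 0.267 CPM in line 2 and 0.294 CPM in WT, so differences below that were not detectable at this depth. The ratio of Krt8 to its partner Krt18 is not given, because either gene was at 0 in most libraries.

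Compared per length, the order of the members changed between groups. In line 1, Jup stood alone at 113 and 107 TPM, and every other member was below 1 TPM. In line 2, Jup had 99.6 and 79.4 TPM, Krt19 31.0 and 50.2 TPM, Cdh3 23.0 and 17.1 TPM, Trp63 2.69 and 1.41 TPM, and Dsp 1.10 and 0.544 TPM. These 5 ranges followed each other without overlap in line 2. In WT, Cdh3 led with 152 and 160 TPM, Jup had 121 and 85.9 TPM and Krt19 62.6 and 112 TPM, the last 2 overlapping, and Dsp (10.2 and 12.4 TPM) and Trp63 (3.88 and 2.39 TPM) came below. No test was made between genes.

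P-cadherin was not the main cadherin of these fibroblasts, but it was a large share of the cadherin RNA in WT. Of the summed TPM of 11 classical and related cadherins, Cdh3 made up 0.205% and 0.091% in line 1, 4.15% and 3.39% in line 2, and 21.3% and 23.8% in WT. The total was 420 and 466 TPM in line 1, 554 and 505 TPM in line 2, and 711 and 672 TPM in WT. Cdh11, the cadherin of mesenchyme, and Cdh2, N-cadherin, led in both deleted lines and in WT. Cdh11 had 189 and 170 TPM in line 1, 275 and 245 TPM in line 2, and 283 and 252 TPM in WT, and neither line was called. Cdh2 had 96.1 and 132 TPM in line 1, 193 and 172 TPM in line 2, and 217 and 212 TPM in WT. It was lower in line 1 than in WT (log2 fold change -0.92, SE 0.15, adjusted p = 0.0126), a call lost without WT replicate 1 (adjusted p = 0.079) or WT replicate 2 (0.0754).

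Some other cadherins were higher in a deleted line. Of the 9 cadherins beside Cdh1 and Cdh3, 6 were tested, of which 2 rose and 1 fell in line 1 and 1 rose in line 2. Of all tested genes 14.3% were called in line 1 and 3.58% in line 2, shares that also stand beside the list counts below. Cdh6, K-cadherin of kidney and neural crest, had 52.5 and 70.8 TPM in line 1, 0.0443 and 0.319 TPM in line 2, and 1.04 and 0.977 TPM in WT. Only line 1 expressed it at a level comparable to the main cadherins, 58.3-fold above WT by the fit (log2 fold change 5.87, SE 0.27, adjusted p = 0.000274). Cdh13, a cadherin anchored to the membrane by a lipid, had 28.6 and 56.4 TPM in line 1, 5.00 and 17.3 TPM in line 2, and no count in WT. Taking 3 counts over both WT libraries as the limit, it was at least 204-fold higher in line 1 (adjusted p = 0.00775), and at least 55.5-fold higher in line 2, where the test was not passed (adjusted p = 0.0507). Cdh10 rose in line 2 over WT (7.39 and 5.36 CPM against 0.632 and 0.880 CPM, log2 fold change 2.82, SE 0.44, adjusted p = 0.028). That call was lost with DESeq2 (adjusted p = 0.0546) and without WT replicate 1, WT replicate 2, line 2 replicate 1 or line 2 replicate 2. The median of the 6 was -0.41 in line 1 and -0.10 in line 2, beside 0.005 for all tested genes in each comparison.

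**Figure D3:**
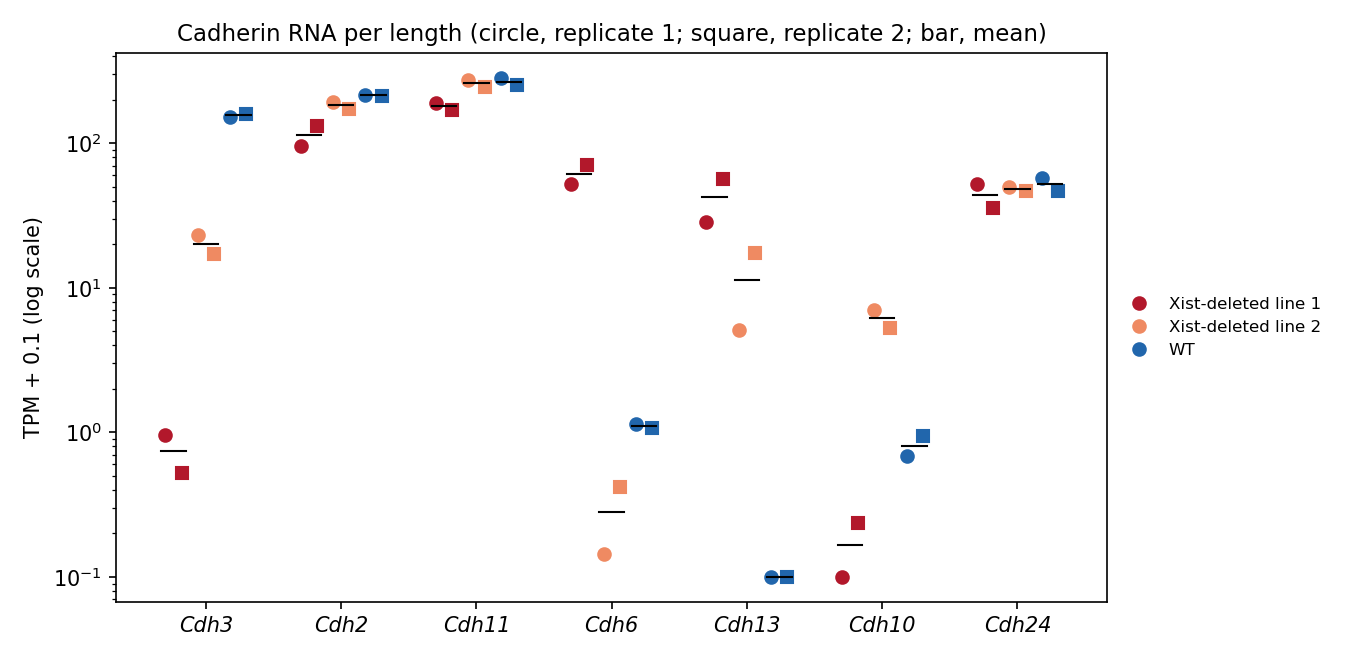
Cadherin RNA per length in each library, in TPM plus 0.1 on a log scale, for the 7 cadherins tested; circles are replicate 1, squares replicate 2 and bars group means. Cdh3 is lowest in line 1, intermediate in line 2 and highest in WT, while Cdh6 is above 50 TPM only in line 1 and Cdh13 has no count in WT.

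Desmosomal partners of Dsp and Jup were mostly at or near 0. Of 14 listed partners 3 were tested and 9 had at most 10 counts over all 6 libraries, and Dsc3, Dsg1a, Dsg1b, Dsg3 and Dsg4, desmosomal cadherins all, had none. Pkp2, plakophilin-2, the plaque protein of simple epithelia and heart, was the abundant exception. It had 24.5 and 26.3 CPM in line 1, 101 and 119 CPM in line 2, and 86.4 and 122 CPM in WT. Pkp2 fell 4.09-fold in line 1 (log2 fold change -2.03, SE 0.21, adjusted p = 0.0023) and kept the call under all 12 alternatives. In line 2 it lay at 0.08 (SE 0.19, adjusted p = 0.947), with no call. Pkp1, plakophilin-1 of stratified epithelia, had 0 and 0.5 counts in line 1, 10 and 16.5 counts in line 2, and 0.5 and 0 counts in WT. Its ratio of counts, line 2 to line 1, was 4.73 on the log2 scale (2.13 to 10.09, adjusted p = 0.0194), and the call was lost without line 2 replicate 1 (0.0939) and with DESeq2 (0.0996). Against WT the line 2 ratio of counts of Pkp1 was 4.62 (2.02 to 9.97), where the test was not passed (adjusted p = 0.0506). Pkp1 was chosen after its values were seen. The median log2 fold change of the 3 was -0.11 in line 1 and 0.08 in line 2, with 1 gene lower in line 1 and none called in line 2.

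The common catenins, partners of the classical cadherins like plakoglobin, were abundant in every group and were not called. Beta-catenin (Ctnnb1) had 421 and 344 CPM in line 1, 432 and 363 CPM in line 2, and 472 and 396 CPM in WT, and alpha-E-catenin (Ctnna1) and p120-catenin (Ctnnd1) were likewise without a call, the largest departure among the 3 being -0.18 for Ctnnb1 in line 1 (log2 fold change). Their neural relatives differed. Ctnna2, alpha-N-catenin, had 0.135 and 0.546 CPM in line 1, 95.1 and 85.2 CPM in line 2, and 24.8 and 18.0 CPM in WT. It fell in line 1 (log2 fold change -5.49, SE 0.36, adjusted p = 0.000688, and -6.16 without line 1 replicate 2) and rose in line 2 (2.08, SE 0.21, adjusted p = 0.0105), the second call being lost without WT replicate 2 (adjusted p = 0.0733), line 2 replicate 1 (0.0742) or line 2 replicate 2 (0.0882). Ctnnd2, delta-catenin, had 0.5 and 0 counts in line 1, 3.5 and 30 counts in line 2, and 75.5 and 299 counts in WT. Its ratio of counts in line 1 to WT was -8.66 (-13.97 to -6.18, adjusted p = 0.00666), and line 2 against WT was -3.56 (SE 0.70, adjusted p = 0.0526). Of 9 tested genes of this list, 2 fell in line 1 and 1 rose in line 2, with medians of -0.18 and -0.05.

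Among 23 other keratins, 4 were tested and none was called in either line against WT. The 19 others had at most 10 counts over all libraries, and Krt5, the usual partner of Krt14, was among them. Krt7, Krt10, Krt13 and Krt80 were the 4, with a median log2 fold change of -1.62 in line 1 and 0.19 in line 2. Krt10, of the upper epidermis, was the steadiest, with 8.79 and 8.26 CPM in line 1, 9.57 and 7.75 CPM in line 2, and 8.09 and 5.92 CPM in WT. Krt13 begins 24.4 kb from Krt19 and had 0 and 0.5 counts in line 1, 9.5 and 30 counts in line 2, and 2 and 10 counts in WT. Its line 2 to line 1 ratio of counts was 5.30 on the log2 scale (2.74 to 10.64, adjusted p = 0.0172), a call lost without line 1 replicate 2 (0.0517) or line 2 replicate 2 (0.124). Krt13 was chosen after its values were seen.

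Tight junction and polarity genes were split. Of 23 such genes with a row of counts, 12 were tested, of which 1 rose and 4 fell in line 1, and 2 rose and 2 fell in line 2, with medians of -0.31 and -0.33. The shares called over all tested genes were 14.3% in line 1 and 3.58% in line 2. Cgnl1, a junction-associated relative of cingulin, had 14.9 and 18.3 CPM in line 1, 94.7 and 78.6 CPM in line 2, and 283 and 244 CPM in WT. As with Cdh3, the 3 groups did not overlap and line 2 lay in the middle. It fell in line 1 (log2 fold change -3.97, SE 0.18, adjusted p = 0.000274) and in line 2 (-1.61, SE 0.16, adjusted p = 0.00922), the second call being lost without WT replicate 1 (adjusted p = 0.0688), WT replicate 2 (0.0532), line 2 replicate 1 (0.0556) or line 2 replicate 2 (0.102). F11r, the adhesion molecule JAM-A, had 13.1 and 15.8 CPM in line 1, 75.8 and 65.4 CPM in line 2, and 39.0 and 36.8 CPM in WT. It fell in line 1 (-1.37, SE 0.18, adjusted p = 0.00498) and rose in line 2 (0.89, SE 0.17, adjusted p = 0.045), and the rise was lost without any 1 of the 4 libraries compared (highest adjusted p 0.338). Claudin-1 (Cldn1) rose in both lines, with 5.95 and 10.8 CPM in line 1, 9.21 and 11.2 CPM in line 2, and 1.26 and 1.44 CPM in WT. In line 1 the increase was 2.63 (SE 0.42, adjusted p = 0.0109), and line 2 gave 2.90 (SE 0.42, adjusted p = 0.0236). They were lost without either WT library, with a highest adjusted p of 0.0843 in line 1 and 0.18 in line 2, and in line 2 also without either of its own libraries. Patj, a scaffold of the Crumbs polarity complex, fell in line 1 (15.1 and 10.1 CPM against 37.0 and 36.1 CPM in WT, log2 fold change -1.56, SE 0.33, adjusted p = 0.0265) and in line 2 (4.12 and 1.97 CPM, -3.66, SE 0.38, adjusted p = 0.0105). Without either WT library both Patj calls were lost, as they were without replicate 2 of the line in question (highest adjusted p 0.12 in line 1 and 0.079 in line 2). Llgl2, a basolateral polarity protein, fell in line 1 only among these tests (-1.25, SE 0.22, adjusted p = 0.0144, and 0.0867 and 0.0839 without WT replicate 1 and 2). Llgl2 was chosen after its values were seen.

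Of 17 listed transcription and splicing factors of epithelia 5 were tested, of which 1 fell in line 1 and 1 rose in line 2, and Esrp1 and Ehf had no count. The Krüppel-like factors Klf4 and Klf5, which epidermis and gut use and fibroblasts also express, were well detected and not called. Klf4 had 88.8 and 35.9 CPM in line 1, 41.1 and 29.9 CPM in line 2, and 57.6 and 29.0 CPM in WT, and Klf5 had 65.6 and 62.4 CPM in line 1, 37.8 and 46.9 CPM in line 2, and 62.4 and 58.6 CPM in WT. Both were named after their values were seen. Esrp2, a splicing factor of epithelial exons, had 1.35 and 0.955 CPM in line 1, 11.5 and 9.02 CPM in line 2, and 25.8 and 18.2 CPM in WT. It fell 19.5-fold in line 1 (log2 fold change -4.28, SE 0.37, adjusted p = 0.00139, held under all 12 alternatives), while line 2 gave -1.09 (SE 0.28, adjusted p = 0.114). Foxa1, a pioneer factor of endoderm and gland epithelia, had 2 and 3 counts in line 1, 14 and 51.5 counts in line 2, and 0.5 and 4.5 counts in WT. Its rise in line 2 over WT (3.21, SE 0.61, adjusted p = 0.0485) was lost without any 1 of the 4 libraries compared. It was also lost with DESeq2 (adjusted p = 0.0609) and with summed transcripts (0.0502). The size of this rise came to 4.32 when WT replicate 2 was dropped and to 2.51 when line 2 replicate 2 was. The medians of the 5 factors were 0.08 in line 1 and -0.28 in line 2.

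Of 9 listed genes of the mesenchymal transition, most of them repressors of E-cadherin, 8 were expressed in all groups, and the other, Snai3, had at most 2 counts in any library and none in line 2. Zeb1 had 118 and 117 CPM in line 1, 120 and 111 CPM in line 2, and 117 and 109 CPM in WT, and Zeb2 and Snai2 were not called either. Snai1 had 141 and 108 CPM in line 1, 98.7 and 91.7 CPM in line 2, and 73.7 and 71.5 CPM in WT. It was higher in line 1 than in WT (log2 fold change 0.77, SE 0.16, adjusted p = 0.0252). That call was lost from the 2 groups alone (adjusted p = 0.0584) and when either WT library or either line 2 library was left out. Twist2 had 131 and 124 CPM in line 1, 86.4 and 90.4 CPM in line 2, and 94.1 and 93.8 CPM in WT, and rose in line 1 (0.44, SE 0.11, adjusted p = 0.0432), a call lost under 8 of 12 alternatives with a highest adjusted p of 0.26. Foxc2, a mesenchymal forkhead factor, had 28.4 and 28.3 CPM in line 1, 30.6 and 43.0 CPM in line 2, and 74.4 and 71.9 CPM in WT. It fell in line 1 (-1.37, SE 0.19, adjusted p = 0.0069) and in line 2 (-0.98, SE 0.19, adjusted p = 0.0495). The line 2 call was lost without any 1 of the 4 libraries compared and with summed transcripts (adjusted p = 0.0525). Of 8 tested genes in this list 2 rose and 1 fell in line 1 and 1 fell in line 2, with medians of 0.04 and 0.06. Hemidesmosome genes, which anchor epithelia to the basement membrane, had 8 of 11 tested and 1 called. That gene, the laminin receptor subunit Itga6, had 141 and 205 CPM in line 1, 31.2 and 45.9 CPM in line 2, and 47.8 and 63.9 CPM in WT (line 1 over WT log2 fold change 1.63, SE 0.27, adjusted p = 0.0126, and 0.0794 without WT replicate 1). The medians of the 8 were 0.45 in line 1 and -0.12 in line 2.

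**Figure D4:**
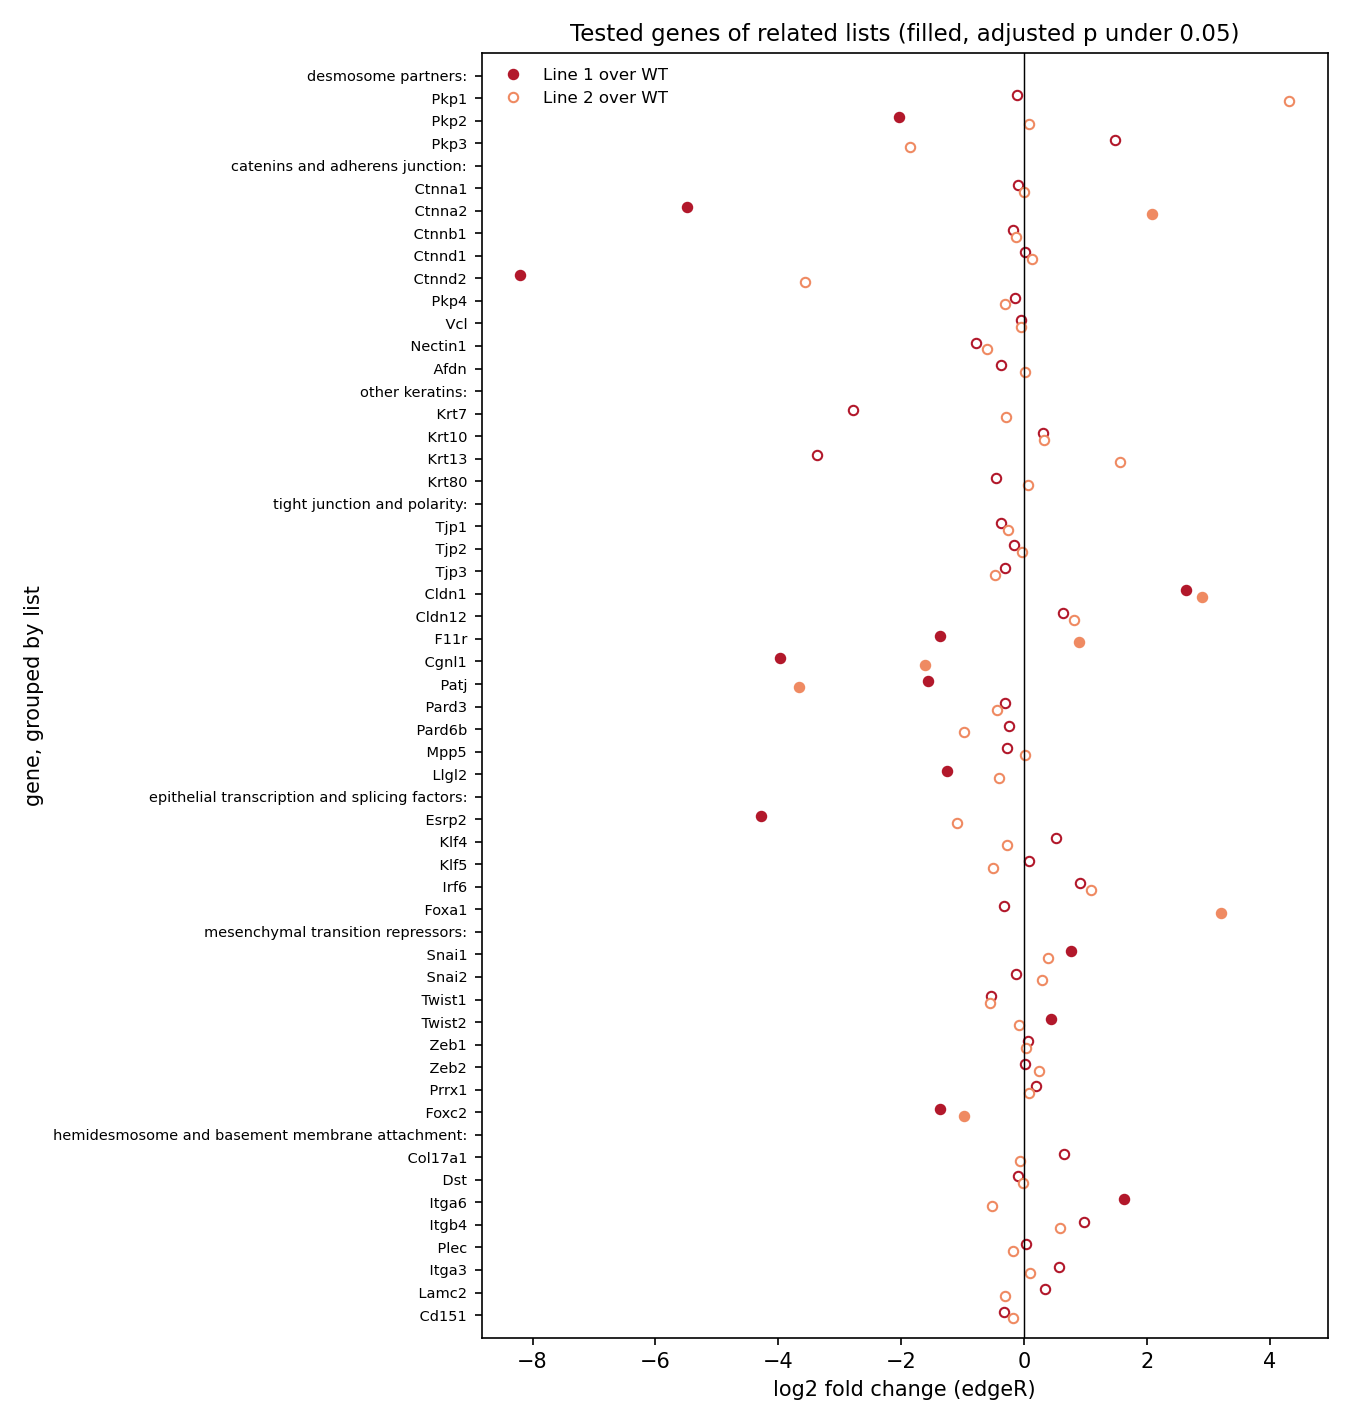
Log2 fold change of every tested gene of the related lists, for line 1 over WT and line 2 over WT; filled points have an adjusted p under 0.05. Most points lie near 0, with Ctnna2, Ctnnd2, Cgnl1 and Esrp2 at or below -3.97 in line 1; fitted values of Pkp1, Pkp3, Krt13 and Ctnnd2 involve groups with 3 counts or fewer and depend on the prior count.

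Markers of other cell types were at or near 0 for the most part, with Msln, Piezo2, Cd68 and Pmel as the main exceptions. Their part in the results was not tested. Of 6 mesothelial markers with a row of counts, 2 were tested. Msln, mesothelin, had 6.76 and 54.1 CPM in line 1, 0.121 and 0.423 CPM in line 2, and 0.379 and 0.560 CPM in WT (line 1 over WT log2 fold change 5.69, SE 1.19, adjusted p = 0.0268, and 0.126 and 0.151 without WT replicate 1 and 2). The Msln value came to 6.47 when line 1 replicate 1 was dropped and to 3.47 when the other line 1 library was. The other tested one, Wt1, was lowest in line 1 at 0.135 and 0.409 CPM, against 4.85 and 3.24 CPM in line 2 and 1.77 and 1.04 CPM in WT. Summed over the 6, mesothelial markers came to 7.03 and 54.7 CPM in line 1, 5.09 and 4.16 CPM in line 2, and 2.40 and 1.84 CPM in WT. Merkel cells express Krt8, Krt18 and Atoh1 in skin, and Atoh1 and Sox2 had at most 0.5 counts in any library. Of 6 Merkel markers only the mechanosensitive channel gene Piezo2 was tested. It fell in line 1 (-1.66, SE 0.33, adjusted p = 0.0215, and 0.109 without WT replicate 2), and the summed Merkel list followed it at 26.5 and 45.2 CPM in line 1, 191.5 and 213.9 CPM in line 2, and 85.9 and 138.7 CPM in WT. Leukocyte markers summed to 13.8 and 6.69 CPM in line 1, 4.48 and 4.72 CPM in line 2, and 3.66 and 2.64 CPM in WT. Among them Cd68 had 12.8 and 4.85 CPM in line 1, 2.67 and 2.19 CPM in line 2, and 2.27 and 2.00 CPM in WT. Its line 1 over WT log2 fold change was 1.98 (SE 0.54), which did not pass the test (adjusted p = 0.0605). The endothelial list summed to between 3.38 and 5.21 CPM in the deleted lines and to 1.39 and 1.04 CPM in WT, and the melanocyte and Schwann list to between 8.18 and 10.8 CPM in the deleted lines and to 12.4 and 9.36 CPM in WT. Pmel, of the last list, was at 5.46 to 9.60 CPM over the 6 libraries. None of the 4 tested genes of the leukocyte, endothelial, and melanocyte and Schwann lists was called. Cd68 and Pmel were named after their values were seen. Krt5, Krt14, Dsg3, Dsc3 and Esrp1, which mark keratinocytes and other epithelia, had at most 1 count in any library. Grhl2, of the same list, had at most 1.5 counts, while Krt10 was at 5.92 to 9.57 CPM over the 6 libraries. The list also holds the members, of which Jup, Cdh3, Krt19, Dsp and Trp63 had the levels given above.

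Genes near the members were compared next. Within 100 kb of a member's start lay 30 other genes, 14 of them tested, of which 3 (21.4%) were called in line 1, none in line 2 against WT and 1, Krt13 (7.14%), between the lines. Over all tested genes the shares called were 14.3%, 3.58% and 12.6% in the same order. Cdh3 and Cdh1 start 92.5 kb apart on the same strand, and Cdh1 was near 0 in every group. Zfp90, 95.5 kb on the other side of Cdh3, was lower in line 1 by a small step (log2 fold change -0.74, adjusted p = 0.0323), as was Tango6 beyond Cdh1 (-0.69, adjusted p = 0.0275), while Nt5c3b near Jup was higher (0.55, adjusted p = 0.0388). All 3 calls were lost in at least 5 of 12 alternatives, with highest adjusted p of 0.254 for Zfp90, 0.191 for Tango6 and 0.268 for Nt5c3b, each without 1 WT library. Krt19 and Krt14 lie 60.1 kb apart in the type I keratin cluster, and of the keratins between and around them only Krt13 was tested. Krt8 and Krt18 start 23.9 kb apart, and the next tested genes, Eif4b and Tns2, were not called. Trp63 had no listed neighbour within the window, and no gene overlapped a member.

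The genes whose pattern over the 6 libraries was most like each tested member were listed by root mean square distance of mean-centred log2 CPM among about 10900 genes whose log2 CPM averaged 2 or more, which is a description with no test. For Cdh3 they were Pcdh10 (0.27), Trpc6 (0.34) and Smoc2 (0.44), and for Krt19 Sema3d (0.31), Tenm3 (0.47) and Pcdh20 (0.50). In line 1 Pcdh10 and Smoc2 had 0.5 and 0 counts each and Trpc6 none. Their log2 CPM there is set mainly by the prior count of 2 that is added before taking logs. Krt19 itself, at 0 and 3 counts in line 1, and Pcdh20, at 1 and 2 counts, were near that floor as well. Pcdh10 and Pcdh20 are protocadherins, a separate branch of the cadherin superfamily. For Dsp the nearest were Greb1 (0.49), Negr1 (0.63) and Agap2 (0.71). For Trp63 they were Rin3 (0.23), Kcnn1 (0.24) and Card10 (0.26). Jup, which varied little, lay nearest to Myo1d (0.05), Trak1 (0.07) and Plec (0.07), the last encoding plectin, a linker of intermediate filaments. Among the members themselves the closest pair was Cdh3 and Krt19 (1.04) and the farthest Jup and Cdh3 (3.11). These distances weigh large changes most, and all genes share the same 6 libraries and their depths.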

How the data were processed

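Libraries came from total RNA of cultured dermal fibroblasts after removal of ribosomal RNA, with 2 biological replicates per group and paired reads, per the labels' protocols. The exon table holds expected counts per RefSeq transcript that the authors made with HOMER on mm10, per the file headers without normalization, in steps of 0.5. Per the submitters' processing notes, the tools included HOMER, bedtools 2.25.0, SAMtools, TopHat2 and Trim Galore 0.4.1. The kit was directional, and no source used here says if strand entered the counting.

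Of 28972 transcripts the one with the highest total was used per symbol (24470 symbols). The design assumed counts; the expected counts were rounded to whole numbers, 0.5 upward. After filterByExpr 12910 genes were tested in 1 quasi-likelihood fit of all 6 libraries in edgeR 4.0.16 (R 4.3.3), with TMM scaling, 3 residual degrees of freedom and Benjamini-Hochberg adjustment over all genes. CPM use deposited counts, and depth per library is in the report. A group with 3 counts or fewer is given as a ratio of counts with a 95% exact interval, or a bound against 3 counts, for counting error only.

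The 10 genes and the lists were chosen with earlier results of these data known. Named genes were Xist, the members, up to 4 called genes per list by adjusted p, called genes within 100 kb, and the 3 genes nearest in pattern. Alternatives were RLE scaling, no filter, DESeq2 1.42.0, a replicate block, summed transcripts, only the 2 groups compared, and each library left out.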

Additional observations from a re-analysis of the deposited data

Results flagged for a closer look

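The effects of the 2 deleted lines against WT differed for 2 members and for 19 other genes. A difference is the contrast of line 2 minus line 1, called by edgeR at an adjusted p under 0.05. The 19 were named from the lists or after their values were seen, and genes nearest in pattern to a member are left out. Most of the 19 were named because they were called against WT. Their number is therefore no measure beside the 12.6% of all tested genes called in this contrast. These differences are on the log2 scale. Among the members they were 4.96 for Cdh3 and 6.16 for Krt19, the Krt19 value being a ratio of counts. Junction partners gave 2.11 for Pkp2, 4.73 for Pkp1 and -3.48 for Pkp3 (both ratios of counts), and 7.57 for Ctnna2. The cadherins gave -8.03 for Cdh6, 0.66 for Cdh2 and 6.08 for Cdh10, the last a ratio of counts. Krt13 gave 5.30 as a ratio of counts. Polarity genes gave 2.36 for Cgnl1, 2.26 for F11r and -2.10 for Patj, and regulators 3.19 for Esrp2, 3.54 for Foxa1 and -0.53 for Twist2. The difference was -2.15 for Itga6, -3.06 for Dcn, -6.38 for Msln, 3.38 for Wt1 and 2.52 for Piezo2. Pkp1, Pkp3, Krt13 and Wt1 were chosen after their values were seen. Of these 21 differences 11 passed under all alternatives that gave a value, and 10 were lost under some. Cdh2 was lost under 6 of 12 (highest adjusted p 0.236), among them the 2 lines alone, without either WT or either line 2 library and without line 1 replicate 1. Twist2 was lost under 5 of 12 (0.226), namely the 2 lines alone and without either WT or either line 2 library. Pkp3, which has 1 count in line 2, was lost under 3 of 9 (0.173): with DESeq2 and without replicate 1 of either line. Foxa1 was lost without replicate 2 of either line (0.129), as was Krt13 (0.124). Patj was lost with the 2 lines alone and without line 2 replicate 2 (0.111), Pkp1 with DESeq2 (0.0996) and without line 2 replicate 1, and Msln without either line 2 library (0.154). Dcn was lost without line 2 replicate 2 (0.0663) and Wt1 without line 2 replicate 1 (0.0605). Sizes moved by over 1.5 times without 1 library for Cdh6 (-9.31 without line 2 replicate 2), Ctnna2 (8.26 without line 1 replicate 2), Foxa1 (2.81 without line 2 replicate 2), Msln (-7.16 and -4.16 without line 1 replicate 1 and 2) and Cdh3 (4.26 without line 1 replicate 2). Fitted values of 4 genes given as ratios of counts moved as far. With 1 library left out they reached 9.56 for Krt19, 7.99 for Cdh10, 7.14 for Krt13 and 6.61 for Pkp1. The fit of all libraries gave 6.00, 5.82, 4.94 and 4.43 in the same order. With 2 libraries per line and 1 cell line per number, a difference between lines covers whatever distinguishes the 2 cultures.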

How the results depend on the processing

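The number of genes called moved by over 1.5 times under some settings. With the replicate number as a block it was 4183 in line 1 against WT, 1565 in line 2 against WT and 3506 between the lines, beside 1846, 462 and 1630. For line 2 against WT it was 948 without the filter on low counts and 792 from the 2 groups alone. Leaving out a single library gave 718 to 2365 genes in line 1 (775 and 718 without WT replicate 1 and 2, 1210 without line 2 replicate 2), 23 to 783 in line 2 (52 and 28 without WT replicate 1 and 2, 46 and 23 without line 2 replicate 1 and 2, 783 and 776 without line 1 replicate 1 and 2) and 601 to 1993 between the lines (707 and 601 without line 2 replicate 1 and 2). The members called were 3 to 4 in line 1, 1 to 2 in line 2 (1 without either WT library or line 2 replicate 2) and 2 to 2 between the lines when 1 library was left out, and 4 between the lines without the filter. Under the block they were 4, 3 and 3: Krt19 in line 2 against WT passed (adjusted p = 0.00779), as did Trp63 between the lines (0.00509). The differences of replicate 2 minus replicate 1 correlated over 12910 genes between line 1 and WT (Pearson 0.54), line 2 and WT (0.59) and line 2 and line 1 (0.53), but there are only 2 numbers and replicate 1 was the shallower library in every group, so the pairing was not taken as established. Signs turned when a single library was left out, none of them of a called value: Jup in line 1 (-0.16 without WT replicate 2 and -0.03 without line 1 replicate 1, range -0.16 to 0.36) and in line 2 (0.054 without WT replicate 1, range -0.485 to 0.054), Pkp2 in line 2 (-0.15 without WT replicate 1 and -0.05 without line 2 replicate 2, range -0.148 to 0.348), Cldn1 between the lines (-0.054 without line 1 replicate 1, range -0.054 to 0.799), Foxa1 in line 1 (0.82 without WT replicate 2, range -0.787 to 0.815) and Pkp1 in line 1 (2.34 without WT replicate 1 and 0.39 without line 1 replicate 1, range -2.311 to 2.34). The causes were not tested. Of the members' values under all alternatives 166 kept their direction and their side of the threshold, 4 passed it newly, 6 no longer passed it and 3 turned. The p-values measure the spread between replicate libraries, 2 a group, pooled over the 3 groups in 1 fit. They do not measure the spread between cell lines of 1 genotype. Genes under about 10 counts are limited by depth.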
